A study of Mus musculus with 6 samples.

Results

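The nonclassical MHC class I genes are heavy-chain genes of the mouse H2 complex on chromosome 17 that stand beside the classical genes H2-K1 and H2-D1. They were chosen by name as 10 genes, H2-T3, H2-T10, H2-T22, H2-T23, H2-T24, H2-M3, H2-Q4, H2-Q6, H2-Q7 and H2-Q10, and 9 of the 10 were found among 34245 genes with 34199 symbols. H2-T10 was not analysed here. Classical class I molecules show many different peptides to CD8+ T-cells and vary strongly between strains. Nonclassical molecules share their fold, and mostly pair with B2m as well, but vary less and bind narrow sets of peptides or none, and several are read by receptors of NK cells, γδ T-cells or CD8+ T-cells. In T-cells, class I heavy-chain genes respond to interferon and depend on the transactivator Nlrc5.

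RNA-seq was carried out on 3 PTCL, peripheral T-cell lymphomas, from lymph nodes of mice that had become terminally ill. The mice carried one germline knockout allele of Dnmt3b and one wild-type allele (Dnmt3b+/-) on the FVB/N background, and age was not used here. The tumors were independent of each other, and their numbers 1 to 3 carry no order. Values are FPKM, in which the reads on the exons of a gene are divided by exon length and by library depth. The depth was 30726570, 18969988 and 20770928 reads in tumors 1, 2 and 3. There was a single group of 3 tumors and no control group, which leaves no groups to test against each other. Reads per gene were recovered from the FPKM, and the intervals given with ratios cover counting error only. The T-cell identity of the samples was checked on 10 marker genes, of which 10 were above 1 FPKM in every tumor, with a summed level of 1430.0, 1154 and 1494 FPKM in tumors 1, 2 and 3. The highest mean was that of Cd8b1, the β chain of CD8, with 435, 166 and 443 FPKM in tumors 1, 2 and 3. In tumor 2, Trbc1, a constant region of the T-cell receptor β chain named after its values were seen, was higher, with 98.2, 284 and 161 FPKM in tumors 1, 2 and 3.

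All 9 genes were above 1 FPKM in every tumor, against 28.4% of all 34199 symbols. Their summed level was 293, 793 and 362 FPKM in tumors 1, 2 and 3, and its mean was 483 ± 271 FPKM (SD, n = 3). Every one of the 9 genes had its highest value in tumor 2, where 33.7% of the 11191 genes with a mean of at least 1 FPKM were highest. None was highest in tumor 1 or in tumor 3, which held the highest value of 50.6% and 15.7% of those genes. In bulk tissue, fewer cells of a type and less RNA per cell cannot be told apart, nor can more cells and more RNA per cell. For 8 of the 9 genes the highest tumor was at least 2 times the lowest, against 34.4% of the same background. This spread rested on tumor 2, and without it 2 genes, H2-Q10 and H2-T23, still differed by at least 2 times. Without tumor 1 there were 6 such genes, and without tumor 3 there were 7. Tumor 2 alone was at least 2 times each of the other tumors for 5 of the 9 genes, a count chosen after the values were seen, against 5.54% of the background. It was 6 with a median-of-ratios scaling and 4 with each tumor divided by its mean FPKM of the CD3 chains Cd3d, Cd3e and Cd3g, a scaling also chosen after the values were seen.

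**Figure D1:**
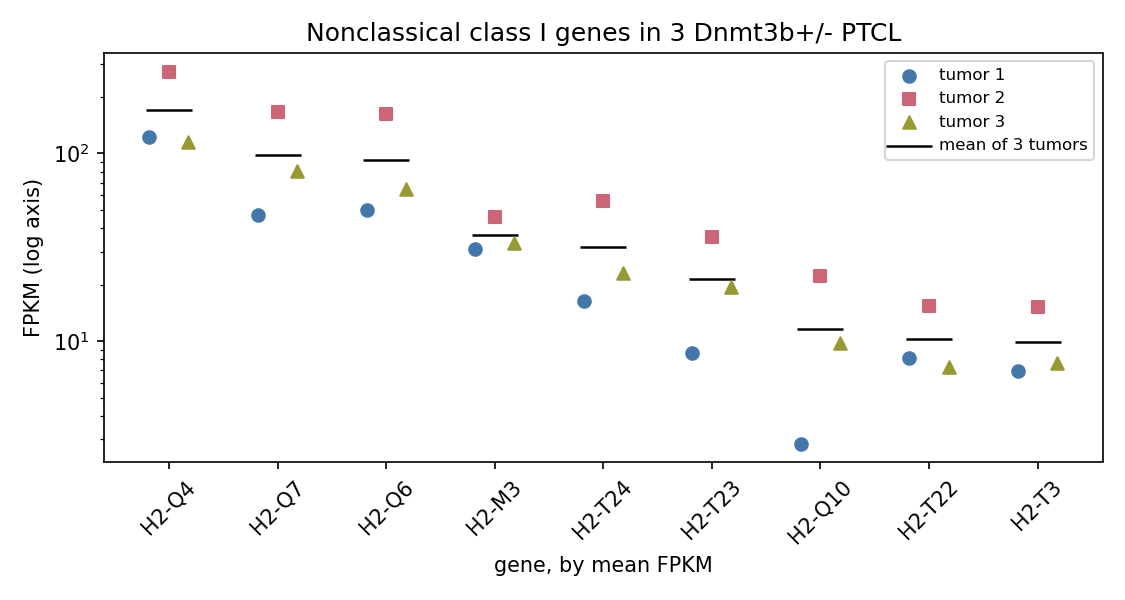
FPKM of the 9 genes in the 3 tumors on a log axis, with 1 marker per tumor and a bar at the mean, ordered by mean FPKM. The marker of tumor 2 is the uppermost for each gene, from 15.2 FPKM for H2-T3 to 273 FPKM for H2-Q4.

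The Q-region genes made up most of the summed level, 75.8% in tumor 1, 78.8% in tumor 2 and 74.9% in tumor 3. H2-Q4 (ENSMUSG00000035929, chr17:35379617-35385290, plus strand) had 123 FPKM in tumor 1, 273 FPKM in tumor 2 and 115 FPKM in tumor 3, a mean of 170.3 ± 89.0 FPKM (SD, n = 3), on 9778, 13443 and 6224 reads. It was the most abundant of the 9 genes in every tumor in the deposited values. Tumors 1 and 3 lay close together in these values and below tumor 2. With the length of the longest protein-coding transcript, described with the order of the genes, H2-Q7 was above H2-Q4 in tumors 2 and 3 but not in tumor 1. H2-Q7 (ENSMUSG00000060550, chr17:35439155-35443773, plus strand), which codes for Qa-2, a molecule held at the cell surface by a lipid anchor, had 47.2 FPKM in tumor 1, 167 FPKM in tumor 2 and 81.0 FPKM in tumor 3, a mean of 98.2 ± 61.6 FPKM (SD, n = 3), on 6179, 13480 and 7174 reads. H2-Q6 (ENSMUSG00000073409, chr17:35424850-35430055, plus strand), a close relative that also gives rise to Qa-2 molecules, had 49.8 FPKM in tumor 1, 163 FPKM in tumor 2 and 65.0 FPKM in tumor 3, a mean of 92.7 ± 61.6 FPKM (SD, n = 3), on 3189, 6456 and 2817 reads. Tumor 1 was the lowest for both in the deposited values, although for H2-Q6 division by Cd3 put tumor 3 below tumor 1, and H2-Q6 stood above H2-Q7 in tumor 1 and below it in tumors 2 and 3. That order depends on the exon length used, which is described with the order of the genes.

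H2-Q10 (ENSMUSG00000067235, chr17:35470089-35474563, plus strand), known as a secreted molecule made mainly in the liver, had 2.84 FPKM in tumor 1, 22.3 FPKM in tumor 2 and 9.81 FPKM in tumor 3, a mean of 11.7 ± 9.86 FPKM (SD, n = 3), on 380, 1839 and 886 reads. It varied most of the 9 genes, and tumor 2 stood at 7.84 times (95% counting interval 7.02 to 8.78) its level in tumor 1 and 2.27 times (95% counting interval 2.10 to 2.47) its level in tumor 3. The reads came without those of hepatocyte genes. All 5 hepatocyte markers searched, Alb, Apoa1, Ttr, Serpina1a and Fgb, were without a read in all 3 tumors, and their summed levels of 0.0839, 0.136 and 0.124 FPKM in tumors 1, 2 and 3 are made up of the small values that stand for no read. Of the 100-base windows of the H2-Q10 exons, 14.9% also lie elsewhere in the reference, so that part of its sequence cannot be told apart from that of its relatives.

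Among the T-region genes, H2-T23 (ENSMUSG00000067212, chr17:36029773-36032855, minus strand) codes for Qa-1, which shows leader peptides of other class I chains to the receptor formed by Klrd1 and Klrc1 on NK cells and CD8+ T-cells. Its level was 8.61 FPKM in tumor 1, 35.9 FPKM in tumor 2 and 19.5 FPKM in tumor 3, a mean of 21.3 ± 13.7 FPKM (SD, n = 3), on 764, 1965 and 1173 reads. Tumor 2 was at 4.17 times (95% counting interval 3.83 to 4.53) the level of tumor 1 and 1.83 times (95% counting interval 1.71 to 1.97) that of tumor 3. H2-T24 (ENSMUSG00000053835, chr17:36005695-36020560, minus strand) had 16.3 FPKM in tumor 1, 56.0 FPKM in tumor 2 and 23.1 FPKM in tumor 3, a mean of 31.8 ± 21.3 FPKM (SD, n = 3), on 1092, 2319 and 1046 reads. No window of its exons had a copy elsewhere in the reference, and its level in tumor 2 was 3.44 times (95% counting interval 3.20 to 3.70) that of tumor 1.

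H2-T22 (ENSMUSG00000056116, chr17:36037128-36042747, minus strand) codes for a molecule without bound peptide that some γδ T-cell receptors recognize. It had 8.13 FPKM in tumor 1, 15.3 FPKM in tumor 2 and 7.28 FPKM in tumor 3, a mean of 10.3 ± 4.43 FPKM (SD, n = 3), on 853, 994 and 516 reads. H2-T3 (ENSMUSG00000054128, chr17:36185572-36190287, minus strand) codes for the TL antigen, which binds the CD8αα form of CD8 and was first known from thymus and leukemia cells. It had 6.96 FPKM in tumor 1, 15.2 FPKM in tumor 2 and 7.68 FPKM in tumor 3, a mean of 9.94 ± 4.56 FPKM (SD, n = 3), on 583, 786 and 435 reads. Both were among the lowest of the 9 genes, their ranges overlapped almost wholly, and for both genes tumors 1 and 3 were close together in the deposited values. For H2-T22 the ratio of tumor 3 to tumor 1 was 0.895 with a 95% counting interval of 0.801 to 0.999, which ends just under 1. For H2-T3 the ratio of tumor 3 to tumor 1 was 1.10 with a 95% counting interval of 0.973 to 1.25, which includes 1. Neither order of tumors 1 and 3 is firm, since with a median-of-ratios scaling tumor 3 was above tumor 1 for both genes and with division by Cd3 it was below for both.

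H2-M3 (ENSMUSG00000016206, chr17:37270220-37274484, plus strand) binds peptides that start with formylated methionine, as bacterial and mitochondrial proteins do. It had 31.1 FPKM in tumor 1, 45.6 FPKM in tumor 2 and 33.2 FPKM in tumor 3, a mean of 36.6 ± 7.83 FPKM (SD, n = 3), on 1374, 1244 and 993 reads. Its level varied least of the 9 genes, with tumor 2 at 1.47 times (95% counting interval 1.36 to 1.58) the level of tumor 1 and 1.37 times (95% counting interval 1.26 to 1.49) that of tumor 3. It was the only one of the 9 whose highest tumor stayed under 2 times the lowest. Its share of the summed level accordingly differed between tumors, from 5.75% in tumor 2 to 10.6% in tumor 1.

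**Figure D2:**
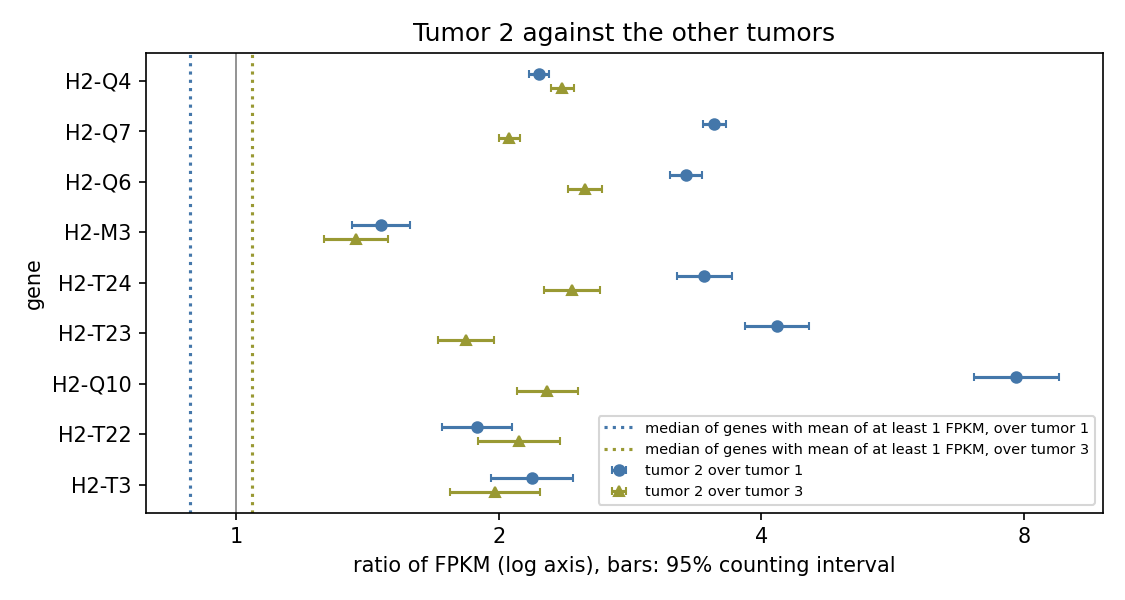
FPKM of tumor 2 divided by that of tumor 1 (circles) and tumor 3 (triangles) for each gene, on a log axis, with exact 95% intervals for counting error, and dotted lines at the median ratio of all genes with a mean of at least 1 FPKM. All 18 ratios are above 1, from 1.37 for H2-M3 against tumor 3 to 7.84 for H2-Q10 against tumor 1.

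Over the 9 genes the median log2 ratio of tumor 2 to tumor 1 was 1.71, and over the genes with a mean of at least 1 FPKM it was -0.18. Against tumor 3 the medians were 1.08 and 0.06, again on the log2 scale. Tumors 1 and 3 could not be ordered as firmly. Tumor 3 was above tumor 1 for 7 of the 9 genes in the FPKM as deposited, for 9 with a median-of-ratios scaling, for 5 with each tumor rescaled to the same sum and for 4 with each tumor divided by its mean FPKM of Cd3d, Cd3e and Cd3g. The order tumor 2, tumor 3, tumor 1, found for 7 of the 9 genes in the deposited values, was that of 16.8% of the background. Under each of these scalings tumor 2 was the highest for all 9 genes.

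The order of the genes by mean FPKM was H2-Q4, H2-Q7, H2-Q6, H2-M3, H2-T24, H2-T23, H2-Q10, H2-T22 and H2-T3. Among neighbours in this order, the deposited values of H2-Q6 and H2-M3 did not overlap over the 3 tumors, and those of the other 7 pairs did. With a median-of-ratios scaling H2-Q6 and H2-M3 overlapped too, with 45.9 for H2-Q6 in tumor 1 and 46.8 for H2-M3 in tumor 2. In each of the 3 tumors, H2-Q4 stood above H2-Q7, H2-T24 above H2-T23 and H2-T23 above H2-Q10 in the deposited FPKM. The order also depends on the exon length by which the reads are divided. The merged exons of H2-Q7, H2-T23 and H2-Q10 cover 92.3%, 93.7% and 97.2% of the span of the gene, against 40.0% for H2-Q6. With the length of the longest protein-coding transcript, chosen after the values were seen, H2-Q7 rather than H2-Q4 had the highest mean, 275 against 247. H2-Q7 then had 132, 467 and 227 in tumors 1, 2 and 3 against 49.8, 163 and 65.0 for H2-Q6. H2-Q7 thus stood above H2-Q6 in every tumor, although the values of that pair still overlapped over the 3 tumors. H2-T23 then stood above H2-T24 in every tumor, with 16.9, 70.4 and 38.4 against 16.3, 56.0 and 23.1, and above H2-M3 in mean. The ratios between tumors do not depend on this length.

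Some stretches of these genes also lie elsewhere in the genome, in relatives or on other chromosomes, and the authors kept only reads with a high mapping quality. The coding sequences of H2-Q6 and H2-Q7 were 95.4% identical over their aligned bases, H2-Q4 was 90.8% identical to H2-Q7, and H2-Q10 was 87.7%. H2-T23 was 83.8% identical to H2-Q7, and H2-T24, the most distant, 67.0% to H2-T23. Of the 100-base windows of the merged exons, the share with an identical copy elsewhere in the reference was 43.0% for H2-Q7, 20.5% for H2-Q6, 11.7% for H2-Q4, 9.87% for H2-T22 and 8.14% for H2-T23. None of the windows of H2-T3, H2-T24 and H2-M3 had one. For H2-Q7, 1154 of 1705 such windows had a copy within the span of H2-Q6, and for H2-T22, 234 of 275 had one within Gm7030 and 202 within H2-T10. Not all copies lie in relatives. Of the 246 windows of H2-Q4, 185 had a copy on chromosome 3 and 30 had one within H2-Q6, and H2-Q6, H2-Q7 and H2-T23 also had copies on other chromosomes. The levels of H2-Q6, H2-Q7, H2-Q4, H2-Q10, H2-T22 and H2-T23 are therefore uncertain as levels of single genes. The 3 genes without a copy were highest in tumor 2 too, but by unlike amounts. For H2-T24, tumor 2 stood at 3.44 times tumor 1 and 2.43 times tumor 3. These ratios were 2.18 and 1.98 for H2-T3, and 1.47 and 1.37 for H2-M3. The part of shared sequence in the levels of tumor 2 was not tested. The reference is C57BL/6J, whose H2 haplotype differs from that of FVB mice, and the effect of this on the reads kept was not tested. H2-Q4 also shares exon bases with Gm11131 on the other strand (36.9, 77.8 and 31.6 FPKM in tumors 1, 2 and 3), and H2-T22 with A930015D03Rik, so without stated strand their reads cannot be told apart.

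**Figure D3:**
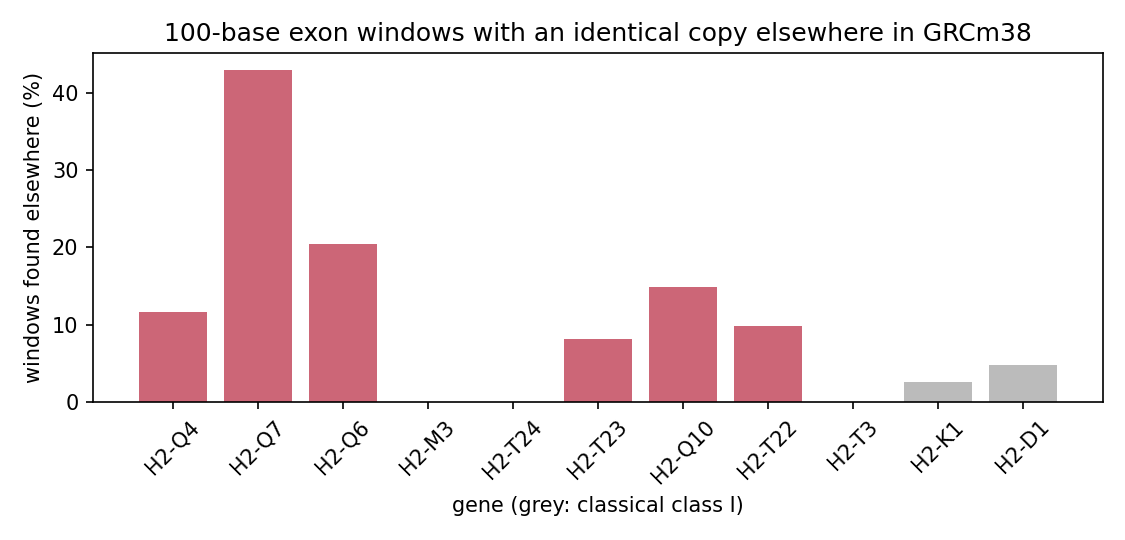
Percent of the 100-base windows of the merged exons that have an identical copy elsewhere in the reference, on either strand, for the 9 genes and for H2-K1 and H2-D1 in grey. H2-Q7 stands highest at 43.0%, and H2-M3, H2-T24 and H2-T3 are at 0.

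Because the 9 genes were high together in tumor 2, their promoters are shown. RefSeq promoter windows on GRCm38.p6, from 250 bases before to 50 bases after the start, were found for 8 of the 9 genes, all but H2-T24. The stretches from 200 to 51 bases before the start are H2-Q4 at chr17:35379417-35379566 (plus strand), H2-Q6 at chr17:35424650-35424799 (plus strand), H2-Q7 at chr17:35438955-35439104 (plus strand), H2-Q10 at chr17:35469889-35470038 (plus strand), H2-M3 at chr17:37270034-37270183 (plus strand), H2-T22 at chr17:36042793-36042942 (minus strand), H2-T3 at chr17:36190202-36190351 (minus strand) and H2-T23 at chr17:36032752-36032901 (minus strand). Capitals mark matches to GAANNGAAA, the core of the interferon-stimulated response element, or to TTTCACTT, which overlaps it.
H2-Q4: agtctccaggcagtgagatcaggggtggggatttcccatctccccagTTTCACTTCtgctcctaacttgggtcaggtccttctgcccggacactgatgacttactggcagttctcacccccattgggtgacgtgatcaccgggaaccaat
H2-Q6: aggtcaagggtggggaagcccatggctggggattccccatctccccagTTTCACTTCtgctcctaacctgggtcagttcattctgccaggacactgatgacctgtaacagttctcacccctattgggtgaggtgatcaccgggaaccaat
H2-Q7: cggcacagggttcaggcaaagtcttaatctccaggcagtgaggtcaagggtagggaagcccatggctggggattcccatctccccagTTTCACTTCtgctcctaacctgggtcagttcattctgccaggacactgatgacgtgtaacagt
H2-Q10: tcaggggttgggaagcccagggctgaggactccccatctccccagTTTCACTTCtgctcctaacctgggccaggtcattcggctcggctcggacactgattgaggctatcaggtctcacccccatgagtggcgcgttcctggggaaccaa
H2-M3: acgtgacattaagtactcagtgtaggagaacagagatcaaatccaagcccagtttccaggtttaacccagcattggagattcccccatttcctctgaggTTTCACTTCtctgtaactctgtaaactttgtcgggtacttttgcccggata
H2-T22: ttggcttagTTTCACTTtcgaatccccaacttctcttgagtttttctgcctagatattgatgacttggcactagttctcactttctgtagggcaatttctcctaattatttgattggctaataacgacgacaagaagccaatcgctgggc
H2-T3: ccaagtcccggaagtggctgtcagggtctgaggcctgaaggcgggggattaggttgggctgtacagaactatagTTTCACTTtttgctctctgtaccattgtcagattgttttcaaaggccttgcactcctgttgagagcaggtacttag
H2-T23: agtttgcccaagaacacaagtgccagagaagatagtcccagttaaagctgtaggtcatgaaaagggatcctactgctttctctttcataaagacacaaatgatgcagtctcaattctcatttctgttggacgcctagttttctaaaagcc

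GAANNGAAA was found on either strand in 5 of the 8 windows, those of H2-Q4, H2-Q6, H2-Q7, H2-Q10 and H2-M3, and in 7.52% of 32851 RefSeq promoter windows of the same length. All 5 matches read TTTCACTTC on the printed strand and began between 101 and 155 bases before the start. The Q-region genes among them are close relatives, and the letters next to the match are the same in their printed stretches. Their matches are therefore not independent of each other, and the same holds for other motifs that these relatives share. The promoters of the classical genes H2-K1 and H2-D1 held TTTCACTTC too. The letters TTTCACTT were searched after the sequences had been seen, which makes them no independent result. They were in 7 of the 8 windows, H2-T22 and H2-T3 included, and in 1.60% of all promoters. TTCNNNGAA, the interferon γ activated site, which reads the same on both strands, was in the window of H2-M3 only, 209 bases before the start and so outside the printed stretch, and in 8.30% of all promoters. GGGANTTCC, the κB element, was in that of H2-Q4 only, and in 1.68% of all promoters. The shorter GGGATTCC, also searched after the sequences had been seen, was in the windows of H2-Q6 and H2-Q7, in those of H2-K1 and H2-D1, and in 1.06% of all promoters.

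The SXY module of class I promoters, through which Nlrc5 acts, holds an X2 box and a Y box. TGACG, the X2 box, also read as the core of a CRE, was in the windows of H2-Q4, H2-Q7, H2-T22 and H2-M3, and in 20.8% of all promoters. CCAAT, the Y box on either strand, was in 6 of the 8 windows, those of H2-Q4, H2-Q6, H2-Q7, H2-T22, H2-T23 and H2-M3, and in 37.4% of all promoters. H2-Q10 and H2-T3 had neither. The window of H2-T23 held CCAAT and none of the other motifs. A match is a description of letters, and no match says only that these letters are not in this window.

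**Figure D4:**
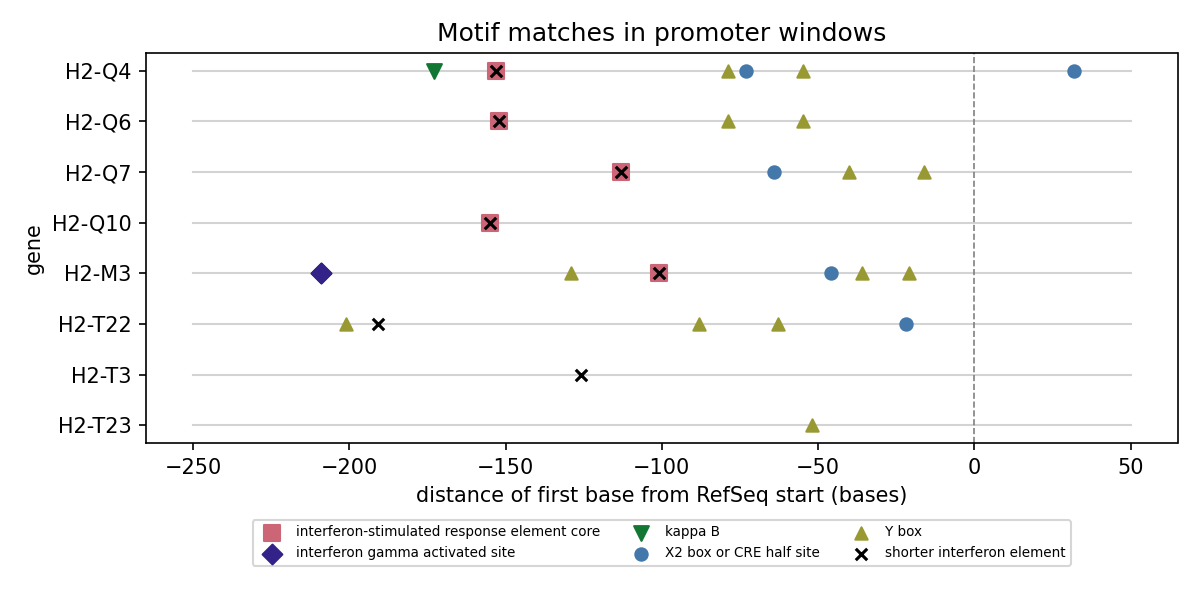
Matches to 6 motifs in the promoter windows of 8 genes, by the distance of the first matched base from the RefSeq start in bases, with 1 line per gene and 1 marker shape per motif. The interferon-stimulated response element core lies between 101 and 155 bases before the start in the 5 genes that hold it.

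The classical genes, which stand beside the nonclassical ones in the H2 complex, were highest in tumor 2 too. H2-D1 had 603, 1238 and 777 FPKM in tumors 1, 2 and 3, and H2-K1 had 231, 373 and 273 FPKM in tumors 1, 2 and 3. H2-L, the other gene of that list, was not analysed here. The 9 nonclassical genes held 26.0%, 33.0% and 25.6% of the FPKM summed over themselves, H2-K1 and H2-D1 in tumors 1, 2 and 3. Their share was thus highest where their level was. B2m, the light chain that class I heavy chains pair with, went the other way, with 2327, 1573 and 1781 FPKM in tumors 1, 2 and 3, lowest in tumor 2.

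Of the other class Ib genes of the H2 region, 13 were found, 1 was above 1 FPKM in every tumor and 9 were without a read in all 3 tumors. Their summed level was 4.98, 5.43 and 2.64 FPKM in tumors 1, 2 and 3. H2-Q1 had 1.01, 4.22 and 1.09 FPKM in tumors 1, 2 and 3, and was highest in tumor 2 like the 9 genes, whereas H2-M2, with 3.36, 0.408 and 1.12 FPKM in tumors 1, 2 and 3, was highest in tumor 1. H2-Q2 had 0.298, 0.411 and 0.0883 FPKM in tumors 1, 2 and 3. Outside the H2 region, 13 of 18 class Ib genes were found and 4 were above 1 FPKM in every tumor, with a summed level of 74.3, 60.8 and 84.5 FPKM in tumors 1, 2 and 3. Fcgrt, the neonatal Fc receptor, had 51.0, 46.9 and 71.8 FPKM in tumors 1, 2 and 3. Ulbp1, a ligand of Klrk1, had 12.1, 6.71 and 3.92 FPKM in tumors 1, 2 and 3. Cd1d1, which shows lipids to NKT cells, had 4.95, 2.52 and 5.30 FPKM in tumors 1, 2 and 3. None of these 3 was highest in tumor 2, where the 9 genes were. H60b, named after its values were seen, was the fourth above 1 FPKM in every tumor and had 1.29, 1.56 and 1.27 FPKM in tumors 1, 2 and 3, on 48, 36 and 32 reads. It was highest in tumor 2 in the deposited values and in tumor 1 when divided by Cd3.

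Peptide loading genes, which supply class I molecules in the endoplasmic reticulum, were split. All 13 were above 1 FPKM in every tumor, with a summed level of 1125, 1138 and 1003 FPKM in tumors 1, 2 and 3. Of the 13, 7 were highest in tumor 2, against all 9 nonclassical genes and 33.7% of all genes with a mean of at least 1 FPKM. Psmb8, an immunoproteasome subunit, had 124, 166 and 145 FPKM in tumors 1, 2 and 3. The oxidoreductase Pdia3 had 188, 107 and 94.4 FPKM in tumors 1, 2 and 3. The chaperone Calr had 163, 115 and 112 FPKM in tumors 1, 2 and 3, and like Pdia3 it was highest in tumor 1, where none of the 9 genes was. Regulators of class I genes were split too, with all 13 above 1 FPKM in every tumor and a summed level of 179.6, 272 and 181 FPKM in tumors 1, 2 and 3. In the deposited values 8 of the 13 were highest in tumor 2, against the same 33.7%, and 6 were when divided by Cd3. Irf1, which binds interferon-stimulated response elements, had 50.4, 76.5 and 57.0 FPKM in tumors 1, 2 and 3. Nlrc5 had 32.0, 68.3 and 29.4 FPKM in tumors 1, 2 and 3. Rela, a subunit of NF-κB, had 19.1, 24.5 and 22.03 FPKM in tumors 1, 2 and 3. All 3 were highest in tumor 2 in the deposited values, and Rela was highest in tumor 1 when divided by Cd3.

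Most interferon response genes were high in tumor 2 together with the 9 nonclassical genes. Of 14 genes, 12 were above 1 FPKM in every tumor, and their summed level was 460.0, 1399.9 and 489 FPKM in tumors 1, 2 and 3. Of the 13 with a mean of at least 1 FPKM, 11 were highest in tumor 2, against 33.7% of all genes with such a mean. The number of the 13 highest in tumor 2 was 10 with each tumor rescaled to the same sum or divided by Cd3, where Igtp was highest in tumor 1. Bst2, which tethers viruses to the cell, had 53.4, 459 and 138 FPKM in tumors 1, 2 and 3. The ubiquitin-like Isg15 had 26.0, 270.3 and 81.7 FPKM in tumors 1, 2 and 3. The GTPase Igtp had 119, 126 and 70.8 FPKM in tumors 1, 2 and 3. The 2 exceptions in the deposited values, named after their values were seen, were the GTPases Gbp2, with 140.1, 58.7 and 29.0 FPKM in tumors 1, 2 and 3, and Iigp1, with 50.9, 5.25 and 6.34 FPKM in tumors 1, 2 and 3, both highest in tumor 1. Whether interferon had a part in the levels of the nonclassical genes was not tested.

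**Figure D5:**
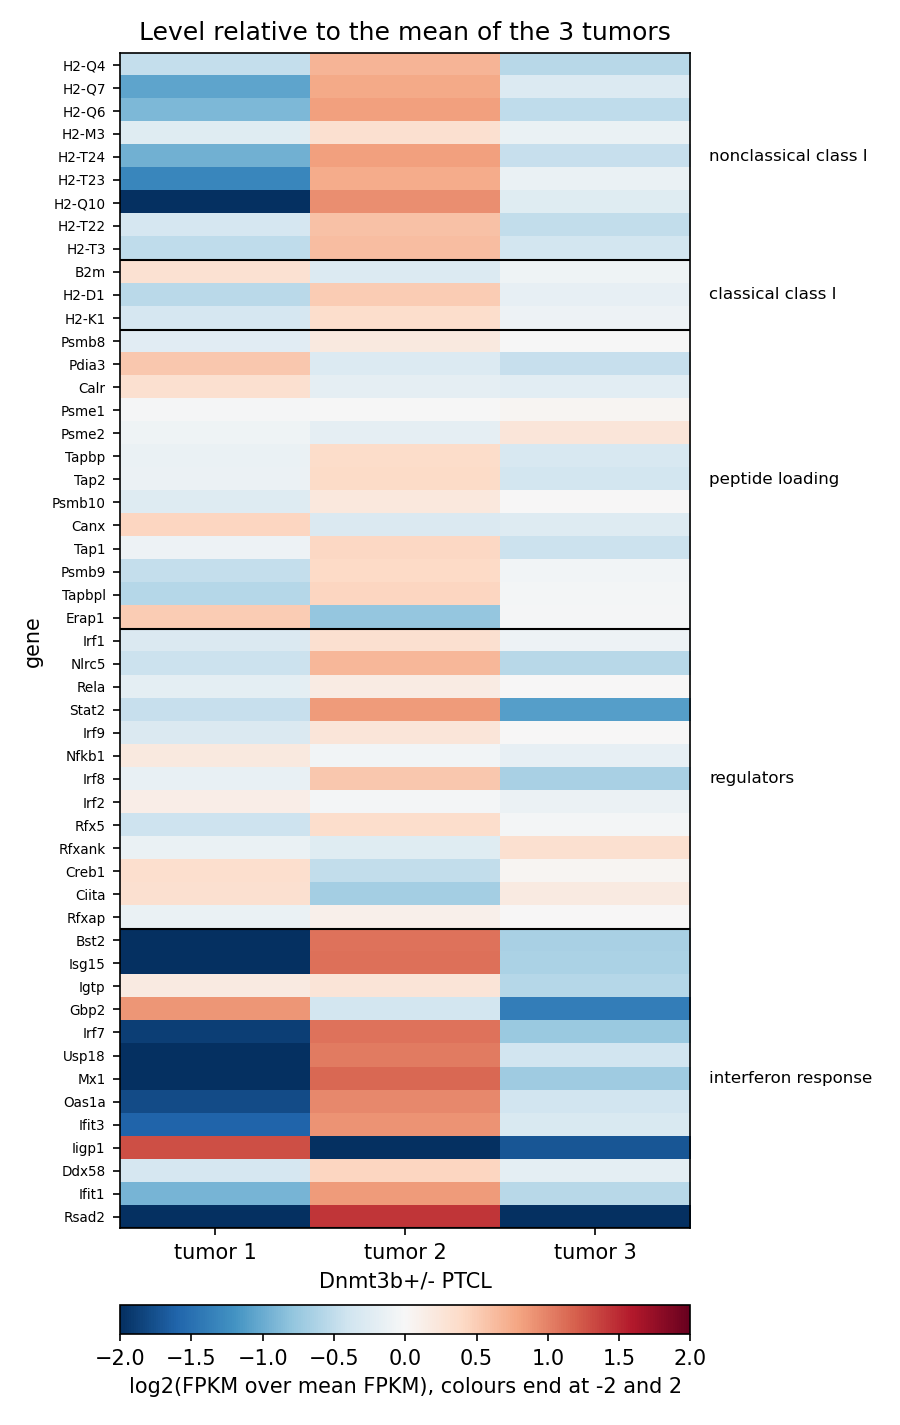
Log2 of the FPKM in each tumor over the mean FPKM of the 3 tumors, red above and blue below the mean, for genes with a mean of at least 1 FPKM in 5 lists. The 9 nonclassical genes are red in tumor 2 and blue in tumors 1 and 3, 11 of the 13 interferon response genes are highest in tumor 2 (10 with each tumor rescaled to the same sum or divided by Cd3), and B2m is lowest there.

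Of 16 receptor genes for nonclassical molecules, 14 were found and 6 were above 1 FPKM in every tumor, with a summed level of 744, 427 and 694 FPKM in tumors 1, 2 and 3. Of the 8 with a mean of at least 1 FPKM, 5 were highest in tumor 2, against 33.7% of all genes with such a mean. The sum is mostly that of Cd8a and Cd8b1. Cd8b1, given above, and Cd8a, with 259, 122 and 218 FPKM in tumors 1, 2 and 3, were lowest in tumor 2, where the 9 genes were highest. Cd8a codes for the chain that the TL antigen, the product of H2-T3, binds. Klrd1, a chain of the receptor for Qa-1, had 37.2, 64.5 and 25.2 FPKM in tumors 1, 2 and 3. Its partner Klrc1, named after its values were seen, had 1.74, 40.6 and 1.26 FPKM in tumors 1, 2 and 3. Both chains of the receptor and its ligand gene H2-T23 were thus highest in tumor 2, although for Klrc1 the other tumors held 106 and 52 reads against 1527.

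By the distance of log2(FPKM over the mean of the 3 tumors), the genes most like H2-T23 among 3431 others with a mean of at least 10 FPKM were Trbj1-4, Gm17092, Pou6f1, Tspo and AC160962.1, at distances of 0.0275 to 0.0761 over 3 tumors. With 3 tumors, many genes come close by this measure. Among 103 other genes of the lists with a mean of at least 1 FPKM, the nearest were H2-Q7 at 0.294, Ifit3 at 0.379, Trbc1 at 0.439, H2-T24 at 0.486 and H2-Q6 at 0.568. Of these 5, H2-Q7, H2-T24 and H2-Q6 are other nonclassical genes, and among all 3431 genes searched they held ranks 22, 62 and 88. The others of the 9 with a mean of at least 10 FPKM held ranks 186 for H2-Q10 to 664 for H2-M3.

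Markers of other cell types also differed between the tumors, some with the 9 nonclassical genes and some against them. Pancreatic acinar genes, 7 of 7 found and none above 1 FPKM in every tumor, summed to 78.8, 412 and 0.632 FPKM in tumors 1, 2 and 3, with Ctrb1 the highest in mean, at 33.9, 198 and 0.0493 FPKM in tumors 1, 2 and 3. Fibroblast genes, 0 of 5 above 1 FPKM in every tumor and led in mean by Col1a1, summed to 10.1, 41.0 and 0.345 FPKM in tumors 1, 2 and 3. Dcn, named after its values were seen, was highest in tumor 1, with 5.04, 3.27 and 0.00825 FPKM in tumors 1, 2 and 3. Both sums were highest in tumor 2, as the nonclassical genes were. NK cell markers summed to 21.0, 77.7 and 48.5 FPKM in tumors 1, 2 and 3, with 1 of 4 above 1 FPKM in every tumor, Eomes, which CD8+ T-cells express as well. Eomes was the largest part of the sum in every tumor, by far in tumors 1 and 3. It was highest in tumor 3, with 20.02, 39.5 and 44.97 FPKM in tumors 1, 2 and 3. The other NK cell markers, named after their values were seen, went different ways. Klre1 had 0.242, 32.2 and 0.0551 FPKM in tumors 1, 2 and 3 and Klrb1c had 0.308, 5.77 and 3.38 FPKM in tumors 1, 2 and 3, both highest in tumor 2. Ncr1 had 0.380, 0.205 and 0.125 FPKM in tumors 1, 2 and 3, on 18, 6 and 4 reads. The intestinal epithelium list, 1 of 5 above 1 FPKM in every tumor and led in mean by Lgals4, summed to 3.40, 5.27 and 2.55 FPKM in tumors 1, 2 and 3. B cell markers, 3 of 5 above 1 FPKM in every tumor and led in mean by Cd79a, summed to 56.2, 13.7 and 104 FPKM in tumors 1, 2 and 3, lowest in tumor 2. Macrophage markers, 5 of 6 above 1 FPKM in every tumor and led in mean by Lyz2, summed to 399.7, 134 and 35.6 FPKM in tumors 1, 2 and 3, highest in tumor 1. Cd68, named after its values were seen, was the exception, with 19.6, 51.2 and 9.27 FPKM in tumors 1, 2 and 3, highest in tumor 2. Dendritic cell markers, 0 of 5 above 1 FPKM in every tumor and led in mean by Itgax, summed to 9.87, 4.63 and 3.29 FPKM in tumors 1, 2 and 3, also highest in tumor 1. The part of these cell types in the levels of the nonclassical genes was not tested.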

How the data were processed

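The values are FPKM that the authors deposited for 3 Dnmt3b+/- PTCL, made by aligning trimmed reads to mm10 with STAR and counting reads of high mapping quality in SeqMonk. The genes and lists were chosen with earlier results of these data known. Bisulfite sequencing samples were not used here.

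Where a symbol had several entries, the one with the highest mean FPKM was taken, and 26 symbols turned into dates were restored from Ensembl identifiers. Genes with no reads carry a value equal to 0.9 read, from which the depth was obtained. Reads per gene were recovered with merged exon lengths of GENCODE M21, which is not stated to be the authors' annotation, and were whole within 0.05 read in all 3 tumors for 92.8% of the genes with a length. Intervals of ratios are exact conditional 95% intervals for Poisson counts and cover counting error only. Whether a pair of reads was counted once is not given in the sources used here, and counting both ends would make the intervals too narrow.

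For each list other than the nonclassical genes, the 3 genes with the highest mean are named, or all where a list has 6 or fewer. From the list of regulators, 1 gene was not used here. Marker lists are given by their sums and the gene with the highest mean, and any further gene was named after its values were seen. Identity had been planned for proteins and was computed on coding sequences instead, as no protein sequence was used here, by global alignment of the longest coding sequence of each gene. Copies of exon windows were searched in the chromosomes and in unplaced and unlocalized scaffolds. Steps were tested on simulated data. Python 3.11, pandas 2.3.3, NumPy 2.4.6, SciPy 1.17.1, Biopython 1.88 and matplotlib 3.10.9 were used.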

Additional observations from a re-analysis of the deposited data

How the results depend on the processing

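Tumor 2 held the highest value of all 9 genes with the deposited FPKM, with each tumor rescaled to sum to 1000000, with a median-of-ratios factor, with repeated symbols summed and with each tumor divided by its mean FPKM of Cd3d, Cd3e and Cd3g, the last chosen after seeing the data. The number of genes whose highest tumor was at least 2 times the lowest was 8, and 5 reached a fold of 3. Leaving out each tumor in turn gave 2 to 7 genes, the lowest without tumor 2. With a pseudocount of 1 FPKM it was 7. At a threshold of 5 FPKM, 8 genes were above it in every tumor. The mean summed level of 483 FPKM became 2336 when each tumor was rescaled to sum to 1000000. This raises all genes of a tumor alike, by 5.30, 4.83 and 4.47 times in tumors 1, 2 and 3. The mean summed level became 782 with the length of the longest protein-coding transcript, an alternative chosen after seeing the data that divides by equal or shorter lengths. Without each tumor in turn it was 328 to 578 FPKM. Without tumor 2, the mean of 5 genes fell by over 1.5 times, that of H2-Q10 from 11.7 to 6.33 FPKM, H2-T24 from 31.8 to 19.7, H2-Q6 from 92.7 to 57.4, H2-Q7 from 98.2 to 64.1 and H2-T23 from 21.3 to 14.1. With the coding transcript length, the means of H2-Q7, H2-Q10, H2-T22 and H2-T23 moved by more than their SD. With 3 tumors, none of these values carries a test. The counting intervals of the ratios hold no variation between animals. Identical sequence limits what can be said of single Q-region genes.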
